A study of Mus musculus with 6 samples.

Results

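The annexins described here are the 10 genes Anxa1, Anxa2, Anxa3, Anxa4, Anxa5, Anxa6, Anxa7, Anxa8, Anxa11 and Anxa13, chosen by gene symbol from the 24404 genes listed. All 10 were among the 13490 genes tested, those with a mean normalised count of at least 10 over the 6 libraries. Another 2 annexin genes, Anxa9 and Anxa10, were outside this choice and are given as values only. The libraries came from biliary epithelial cells, the lining of the bile ducts within the liver, of adult C57BL/6 mice given DDC, a compound that injures bile ducts, for 1 week. The 3 Klf5 LKO libraries had the genotype Alfp-CreTg/+;Klf5flox/flox and the 3 control libraries Alfp-Cre+/+;Klf5flox/flox, so both groups carried the floxed Klf5 gene and both were injured. The Alfp-Cre transgene is active in the epithelial lineage of the liver, hepatocytes as well as bile duct cells, and its presence and the loss of Klf5 cannot be told apart. No uninjured group was analysed here.

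Annexins are cytosolic proteins that bind membrane phospholipids when calcium rises. Each has a conserved core of repeats that holds the calcium and lipid sites and a variable N-terminal part that binds partners, many of them small calcium-binding proteins of the S100 and penta-EF-hand families. They are known for linking membranes to the actin cortex, for vesicle traffic, for sealing damaged plasma membrane and for binding phosphatidylserine, and several are abundant in ductal epithelia.

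Total reads ran from 17161087 to 24784167 in Klf5 LKO and from 11726934 to 20066745 in control. Values are read counts normalised to a common depth by the authors, and a log2 fold change is Klf5 LKO over control on the log2(value + 1) scale. Klf5 itself had 977, 1192 and 1183 normalised counts in Klf5 LKO, against 2056, 2018 and 2316 in control (limma adjusted p = 0.0103, and 0.0540 to 0.0681 when a control library was left out). There is 1 count per gene, so reads from any part of Klf5 that was not deleted are included. All 12 ductal markers checked were present in every library, but they were not at one level in both groups. Tspan8 fell (limma adjusted p = 0.0265). Krt19 and Krt7 had lower values and Cftr and Krt18 higher values without overlap, short of the limma threshold, and the other 7 overlapped. DESeq2 called Tspan8 and also Krt7 (adjusted p = 0.000905), Krt19 (0.00192) and Cftr (0.00508), but not Krt18 (0.138). Over all tested genes 15.6% did not overlap and DESeq2 called 2.48%. Of 12 Kupffer cell and macrophage markers, Clec4f, Cd5l and Vsig4 were at 0 throughout, while Csf1r was at 868 to 1455 normalised counts in Klf5 LKO and 1248 to 1547 in control and Cd68 at 122 to 225 in Klf5 LKO and 93.2 to 240 in control. Of 10 stellate and fibroblast markers, 5 were at 0 throughout, Col1a2 and Col3a1 among them, and Col1a1 had reads in every library. Hepatocyte markers were uneven, and 10 of 13 reached the mean needed for testing. Alb was at 6081 to 9205 in Klf5 LKO and 7063 to 9665 in control. Trf was at 46300 to 64154 in Klf5 LKO and 28318 to 44799 in control, and Apob was called lower (limma adjusted p = 0.0322). Over the 6 libraries, Ass1 reached at most 2.03, Cps1 10.6 and Cyp3a11 41.1, and Cyp2e1 lay at 25.3 to 36.2. The part of these cell types in the annexin values was not tested. Genome positions are from GENCODE M21 on GRCm38, the assembly behind the submitters' mm10. The labels do not tie a library to an animal, and the p-values therefore cover only the variation among these 6 samples, part of which may be technical. In cells prepared in bulk, fewer cells of a type and less RNA per cell cannot be told apart.

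Klf5 LKO cells had less Anxa3 mRNA, while the other annexins either had lower values short of the threshold (Anxa2, Anxa8, Anxa11), a higher value short of it (Anxa6) or overlapping groups (Anxa1, Anxa4, Anxa5, Anxa7, Anxa13). Of the 10 annexins, 1 fell, 0 rose and 9 did not pass in limma with Benjamini-Hochberg adjustment over all tested genes. Over all 13490 genes, 0.489% passed as lower and 0.163% as higher, and a count of 1 gene does not set the family apart from that background. At an unadjusted p under 0.05, 3 annexins were lower and 1 was higher, where 5.92% of all tested genes were lower and 4.95% higher. No annexin passed as higher with DESeq2, edgeR or voom either, and those tools called 2, 1 and 2 annexins lower, against 1.6%, 0.489% and 0.437% of all genes. The groups did not overlap for 5 of the 10 annexins, 4 lower and 1 higher, where 15.6% of all tested genes did not overlap, 7.88% with lower and 7.72% with higher values. The median log2 fold change was -0.07 over the annexins and -0.0052 over all tested genes.

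**Figure D1:**
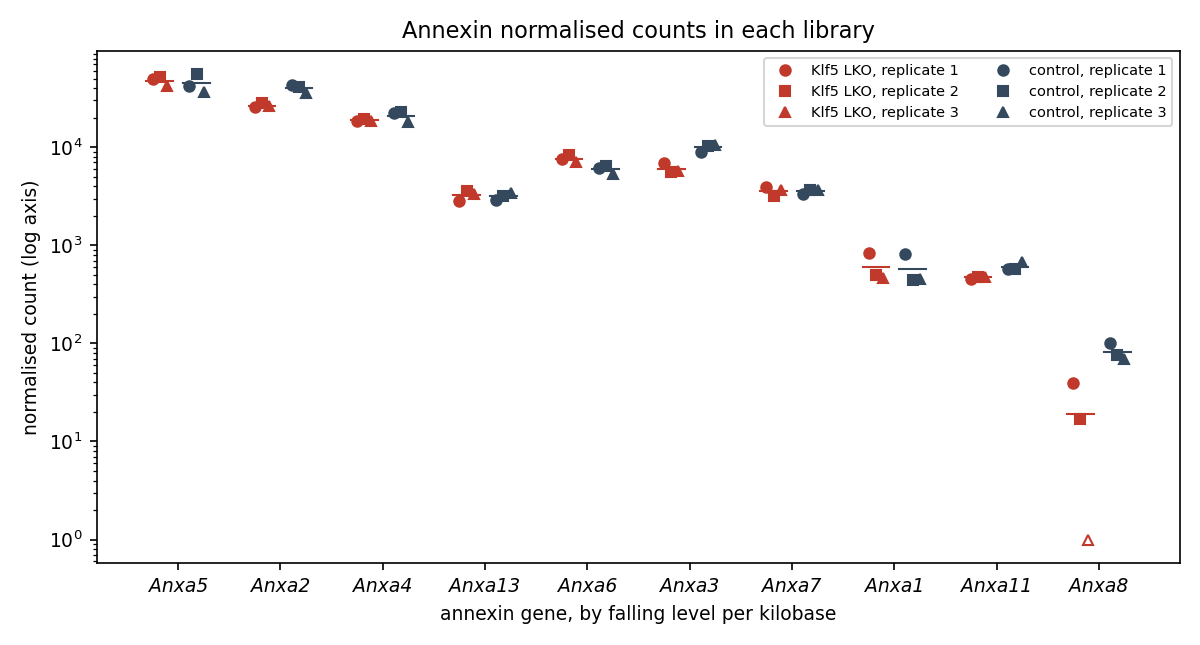
Normalised count (log axis) of each annexin in each library, Klf5 LKO on the left and control on the right of each pair, with the symbol giving the replicate and a line at the group mean; the value of 0 for Anxa8 in Klf5 LKO replicate 3 is drawn open at 1. The groups separate for Anxa2, Anxa3, Anxa6, Anxa8 and Anxa11.

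Anxa3 (chromosome 5, 96793339 to 96845966, plus strand), an annexin of epithelia that is also known from neutrophils, was the member that passed. It had 6941, 5541 and 5689 normalised counts in Klf5 LKO, against 9045, 10219 and 10555 in control. The highest Klf5 LKO library stayed below the lowest control library. Its mean was 6057 ± 769 in Klf5 LKO and 9940 ± 793 in control (SD, n = 3 each). Anxa3 fell by 0.72 on the log2 scale (SE 0.13, 95% confidence interval -0.998 to -0.440, limma adjusted p = 0.0273), a level lower by 1.65-fold. Between 5343 and 10389 reads per library lay behind these values. The gene Gm42603 overlaps Anxa3 on the same strand, and reads from both may not have been told apart.

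The direction of Anxa3 was the same in every setting, but its call rested on 5 of the 6 libraries. It ended without Klf5 LKO 2 (limma adjusted p = 0.0749), Klf5 LKO 3 (0.109), control 1 (0.0834), control 2 (0.162) or control 3 (0.113), and held without Klf5 LKO 1 (0.00882). Adding the mean log2 value of 9 leukocyte genes to the model ended it as well (limma adjusted p = 0.0592), where the log2 fold change was -0.73. The count tests on the recovered reads called it, with adjusted p = 7.51e-06 in DESeq2, 0.0421 in edgeR and 0.0282 in voom. The authors' deposited table gives a log2 fold change of -0.65 and an adjusted p of 1.07e-05 for Anxa3. The summed level of 10 neutrophil markers was 241 to 268 normalised counts in Klf5 LKO and 229 to 273 in control. Cxcr2 made up most of that sum, with 188 to 254 in Klf5 LKO and 193 to 215 in control. S100a8 reached at most 2.13 and S100a9 was at 0 in 4 libraries, with 11.7 in Klf5 LKO 3 and 3.16 in control 2.

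Anxa2 (chromosome 9, 69453620 to 69491795, plus strand) binds membranes as a complex with S100a10, ties them to actin, and gathers plasminogen and its activator at the cell surface. It had 25526, 27932 and 26131 normalised counts in Klf5 LKO, against 43472, 40912 and 35434 in control. All 3 Klf5 LKO libraries lay within a narrow band below the 3 control libraries. The antisense gene Gm16144 overlaps Anxa2, and whether reads were counted by strand is not stated. Its mean was 26530 ± 1252 in Klf5 LKO and 39939 ± 4107 in control (SD, n = 3 each). On the log2 scale the difference was -0.59 (95% confidence interval -0.87 to -0.30, SE 0.13). This did not pass in limma (adjusted p = 0.0791) or edgeR (0.0520), and passed in voom (0.0444) and DESeq2 (4.42e-05). In the authors' deposited table Anxa2 has a log2 fold change of -0.55 and an adjusted p of 5.72e-05. Leaving out 1 library gave log2 fold changes from -0.67 to -0.52 and limma adjusted p from 0.0842 to 0.344. DESeq2 called 2.48% of all genes tested, edgeR 0.623%, voom 0.549% and limma 0.652%.

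**Figure D2:**
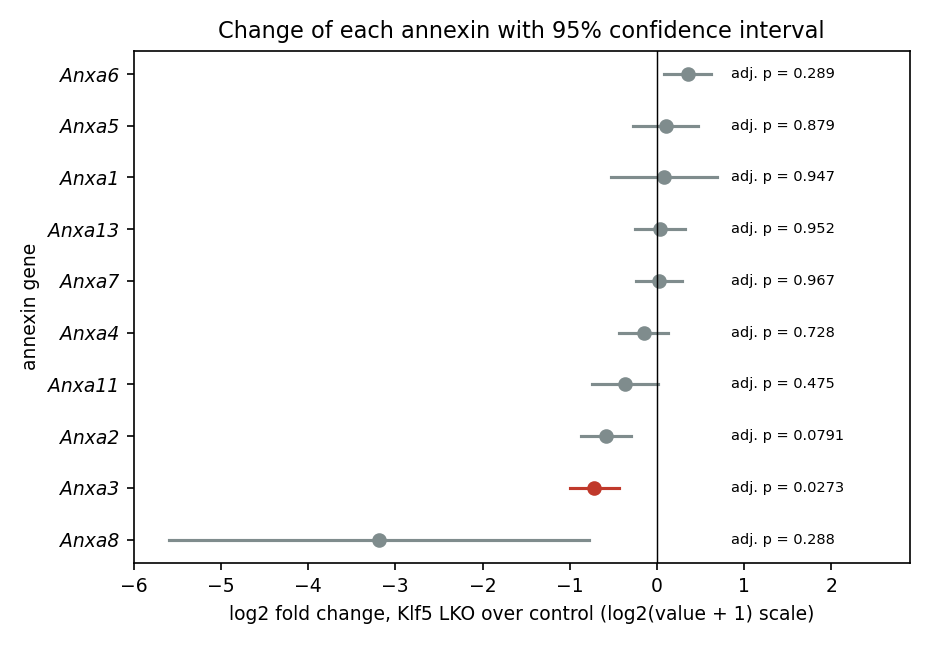
Log2 fold change of each annexin, Klf5 LKO over control, with its 95% confidence interval and limma adjusted p; red marks an adjusted p under 0.05. Anxa3 is the member past the threshold, at -0.72, and the interval of Anxa8 is the widest of the 10.

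**Figure D3:**
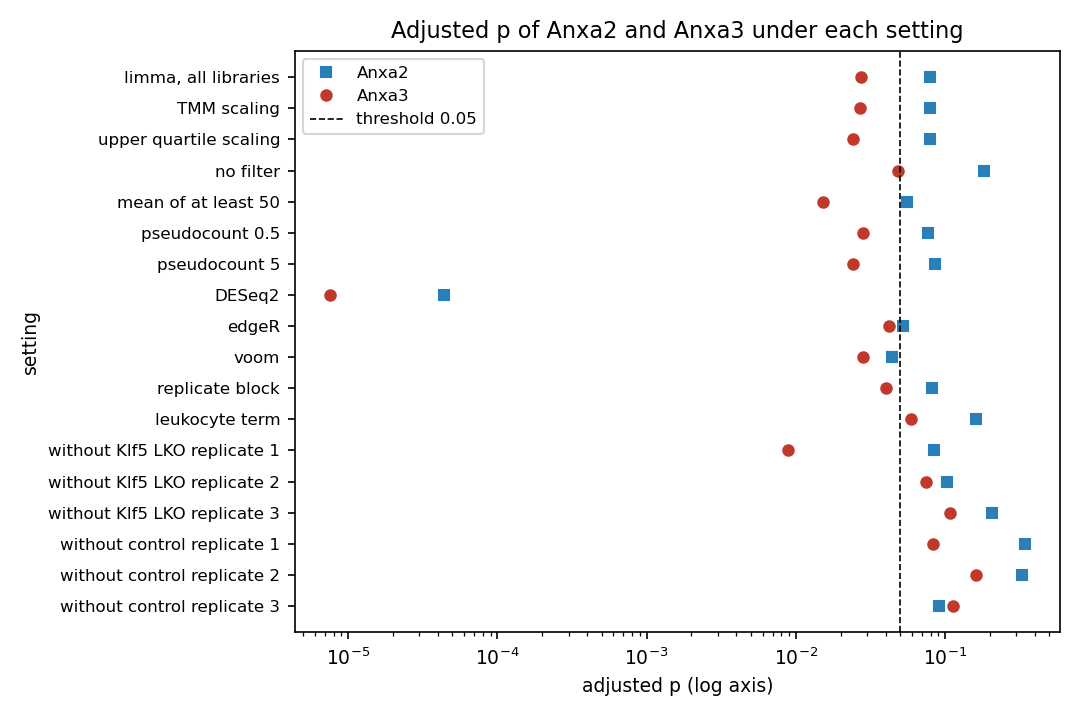
Adjusted p (log axis) of Anxa2 (squares) and Anxa3 (circles) with limma over all libraries and under each other setting; the dashed line is the threshold of 0.05. Anxa3 lies left of the line except with the leukocyte term or when any library other than Klf5 LKO 1 is left out, and Anxa2 crosses it with DESeq2 and voom.

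Promoter sequence is described here because Klf5 belongs to a family that binds CACCC and other GC-rich elements. RefSeq windows on GRCm38.p6 matched 7 of the 10 annexins, and Anxa3, Anxa6 and Anxa13 were not among them. The 250 bases before the RefSeq start site are shown for Anxa2, lower in every Klf5 LKO library, and for Anxa5, whose groups overlapped. Capitals mark CACCC and its reverse complement GGGTG. The Anxa2 window is chr9:69453433-69453682 (plus strand) and the Anxa5 window chr3:36475888-36476137 (minus strand), both written 5′ to 3′ on the gene's strand.
Anxa2: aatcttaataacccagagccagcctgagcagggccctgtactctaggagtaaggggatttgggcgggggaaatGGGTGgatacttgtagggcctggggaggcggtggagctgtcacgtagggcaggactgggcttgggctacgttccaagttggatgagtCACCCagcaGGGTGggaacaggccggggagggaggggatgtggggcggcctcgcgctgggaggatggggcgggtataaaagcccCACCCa
Anxa5: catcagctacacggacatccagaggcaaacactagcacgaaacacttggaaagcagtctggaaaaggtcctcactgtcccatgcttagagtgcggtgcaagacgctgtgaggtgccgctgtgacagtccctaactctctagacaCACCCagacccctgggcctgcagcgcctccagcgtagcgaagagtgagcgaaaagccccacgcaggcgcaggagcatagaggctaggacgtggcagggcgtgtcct
Anxa2 held 4 matches, at positions -177, -90, -81 and -6 from the RefSeq start site, and Anxa5 held 1, at -106. The GENCODE spans of both genes reach into these windows, from 69453620 for Anxa2 and up to 36475894 for Anxa5. The -6 match of Anxa2 therefore lies inside its GENCODE span. Of all 32817 promoter windows of this length, 52.0% held at least 1 match and 2.14% held 4 or more. Among the annexins, 7 of the 9 windows held a match, including both of Anxa4, whose groups overlapped, while the window of Anxa1 held 0. Anxa7, the steadiest member, held 2 in 1 of its windows and 0 in the other. Anxa8 and Anxa11, whose groups did not overlap, held 2 each. The GC box CCGCCC or its reverse complement GGGCGG, searched on both strands, occurred 3 times in the window of Anxa2, 0 times in that of Anxa5, 4 times and 1 time in those of Anxa7 and 3 times in that of Anxa11, where 1 overlapped a CACCC match. At least 1 GC box was in 32.7% of all windows. A match is a description of the letters and not evidence of binding.

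S100 proteins are the best known partners of the annexins. All 6 measured S100 partners had log2 fold changes below 0, with a median of -0.88, but in limma 1 fell, 0 rose and 5 did not pass, and 3 of the 6 (S100a11, S100a4 and S100a1) had overlapping groups. Over all tested genes 50.8% had a log2 fold change below 0 and 0.489% were called lower. S100a6, which binds Anxa2, Anxa11 and other annexins, had 779, 760 and 1122 normalised counts in Klf5 LKO, against 5939, 4319 and 5393 in control. It fell by 2.57 on the log2 scale (limma adjusted p = 3.95e-05), a call that leaving out any 1 library did not end.

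S100a10, the obligate partner in the Anxa2 complex, had 1797, 2415 and 2576 normalised counts in Klf5 LKO, against 4046, 3485 and 2738 in control. The groups did not overlap, though Klf5 LKO 3 and control 3 lay close together. Its log2 fold change was -0.60 (SE 0.17; limma adjusted p = 0.192, DESeq2 adjusted p = 0.0322), beside -0.59 for Anxa2. The ratio of Anxa2 to S100a10 per kilobase was 4.61, 3.76 and 3.30 in Klf5 LKO, against 3.49, 3.81 and 4.20 in control, overlapping ranges (exact permutation p = 1, two-sided). Over 3 against 3 libraries the smallest p such a test can give is 0.1.

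S100b had 112, 163 and 180 normalised counts in Klf5 LKO, against 320, 329 and 348 in control (limma adjusted p = 0.0815, DESeq2 adjusted p = 0.00870). S100a11, a partner of Anxa1 and Anxa2, had 5921, 12901 and 13227 in Klf5 LKO, against 16708, 14164 and 12853 in control, with Klf5 LKO 1 far below the other 5 libraries. S100a1 and S100a4 did not pass and their groups overlapped (limma adjusted p = 0.809 and 0.335).

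None of the 9 genes listed for surface plasminogen binding and activation passed in limma, and edgeR and voom called 0. DESeq2 called 1 of the 9, where it called 2.48% of all tested genes. In limma 0 were lower and 1 was higher at an unadjusted p under 0.05, where 5.92% of all tested genes were lower and 4.95% higher. The one higher gene, and the single call of DESeq2 in this list (adjusted p = 0.00110), was the protease inhibitor Serpine2, with 1594 ± 135 normalised counts in Klf5 LKO and 996 ± 56.9 in control (SD, n = 3 each; limma adjusted p = 0.0545). Plat, the tissue plasminogen activator that binds Anxa2 at the surface, had 2457, 2527 and 2542 in Klf5 LKO, against 2773, 2794 and 2762 in control. These groups did not overlap, but the difference was small (log2 fold change -0.15, limma adjusted p = 0.698). The list also holds Enpep, an aminopeptidase that is no part of this pathway (limma adjusted p = 0.464).

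Anxa5, Anxa4 and Anxa13 are the abundant epithelial members whose groups overlapped. Anxa5 (chromosome 3, 36448923 to 36475894, minus strand) covers membranes that expose phosphatidylserine and is used as a probe of dying cells. It had 49449, 51465 and 41798 normalised counts in Klf5 LKO, against 42254, 55766 and 36430 in control. Both the highest and the lowest value belonged to control libraries. Its log2 fold change was 0.10 (95% confidence interval -0.27 to 0.48, limma adjusted p = 0.879), which leaves room for a level 17.1% lower to 39.1% higher.

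Anxa4 (chromosome 6, 86736840 to 86793584, minus strand), typical of secretory and ductal epithelia, had 18340, 19476 and 18508 normalised counts in Klf5 LKO, against 22431, 22643 and 17877 in control. Controls 1 and 2 lay above all Klf5 LKO libraries and control 3 below them. Its log2 fold change was -0.15 (95% confidence interval -0.44 to 0.13, limma adjusted p = 0.728). Anxa13 (chromosome 15, 58341471 to 58389244, minus strand), a lipid-anchored annexin of absorptive epithelia, had 2803, 3611 and 3307 in Klf5 LKO, against 2878, 3167 and 3416 in control. It differed by 0.03 on the log2 scale (95% confidence interval -0.26 to 0.33, limma adjusted p = 0.952).

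Anxa6, Anxa7 and Anxa11 are annexins of endosomes, granules and other internal membranes. Anxa6 (chromosome 11, 54979108 to 55033445, minus strand), whose core holds more repeats than that of other members and which acts on endosomal cholesterol, had 7577, 8259 and 7012 normalised counts in Klf5 LKO, against 6170, 6406 and 5290 in control. It was the one annexin with every Klf5 LKO library above every control library. Its log2 fold change, 0.36 (95% confidence interval 0.09 to 0.63, SE 0.12), did not pass (limma adjusted p = 0.289, DESeq2 adjusted p = 0.120).

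Anxa7 (chromosome 14, 20455260 to 20480133, minus strand), which aggregates secretory granules, was the steadiest member, with 3926, 3214 and 3678 normalised counts in Klf5 LKO, against 3371, 3626 and 3624 in control. The highest of the 6 values was 1.22 times the lowest, and the log2 fold change was 0.02 (95% confidence interval -0.24 to 0.29, limma adjusted p = 0.967). Anxa11 (chromosome 14, 25842156 to 25886804, plus strand), which tethers RNA granules to lysosomes, had 456, 480 and 476 in Klf5 LKO, against 567, 577 and 680 in control. The groups did not overlap, and the log2 fold change was -0.36 (95% confidence interval -0.74 to 0.01, limma adjusted p = 0.475). The antisense gene Anxa11os overlaps Anxa11 on the other strand, and reads from the 2 may not have been told apart.

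The penta-EF-hand proteins bind the N-terminal parts of Anxa7 and Anxa11. Of 6 genes in the list of these proteins and the ALG-2 partner Pdcd6ip, 0 were called by limma, DESeq2, edgeR or voom. Only 1 was lower at an unadjusted limma p under 0.05, where 5.92% of all tested genes were lower. Pdcd6ip, an adaptor of membrane budding and repair, had 4421, 4982 and 4742 normalised counts in Klf5 LKO, against 5665, 6216 and 5940 in control (log2 fold change -0.33, limma adjusted p = 0.276). The small calpain subunit Capns1 followed by p, with 6279 ± 343 in Klf5 LKO and 7198 ± 77.1 in control (SD, n = 3 each; limma adjusted p = 0.567).

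Among 15 measured genes of membrane repair and the ferlins, limma, edgeR and voom called 0. Of these genes 3 were lower at an unadjusted limma p under 0.05, as were 5.92% of all tested genes. Ahnak, a giant scaffold that binds the Anxa2 and S100a10 complex, had 4618, 4200 and 4615 normalised counts in Klf5 LKO, against 5641, 6199 and 6093 in control. The groups did not overlap (log2 fold change -0.42, limma adjusted p = 0.154). Ahnak was the single gene of this list that DESeq2 called (adjusted p = 0.0173), where DESeq2 called 2.48% of all tested genes. The endosomal ATPase Ehd1 had 702 ± 204 in Klf5 LKO and 1091 ± 108 in control (SD, n = 3 each; limma adjusted p = 0.206).

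Anxa1 (chromosome 19, 20373428 to 20390944, minus strand), a glucocorticoid-induced protein that dampens inflammation through formyl peptide receptors, had 841, 502 and 466 normalised counts in Klf5 LKO, against 820, 446 and 455 in control. Replicate 1 of each group stood well above the other libraries. The log2 fold change was 0.08 with a wide 95% confidence interval, -0.53 to 0.69 (limma adjusted p = 0.947), and its sign turned when Klf5 LKO 1, control 2 or control 3 was left out. The mean log2 value of the 9 leukocyte genes was 4.31, 2.84 and 4.62 in Klf5 LKO, against 5.83, 4.00 and 3.46 in control. The leukocyte gene Alox5ap had 108, 19.4 and 29.8 in Klf5 LKO, against 209, 72.7 and 7.11 in control, highest in replicate 1 of each group like Anxa1. Ptprc and Cd68 were highest there too. Csf1r, Lyz2, C1qb and Mpeg1 were not highest in replicate 1 of both groups. Csf1r had 868, 1455 and 1297 in Klf5 LKO, against 1262, 1547 and 1248 in control. The part of leukocytes in the Anxa1 values was not tested. The receptor Fpr3 was at 0 in all libraries, and Fpr1 and Fpr2 each had reads in 1 library. Of the 9 listed genes around Anxa1 receptors and phospholipase A2, 4 were tested and 0 were called by any of the 4 tools or had an unadjusted limma p under 0.05. The lowest p there belonged to the prostaglandin synthase Ptgs1 (limma adjusted p = 0.515) and the phospholipase Pla2g4a (0.833).

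Anxa8 (chromosome 14, 34085981 to 34100571, plus strand), an annexin of stratified epithelia, was the scarcest member. It had 48, 23 and 0 reads in Klf5 LKO, against 110, 48 and 69 in control, or 39.4, 17.1 and 0 normalised counts in Klf5 LKO, against 101, 75.9 and 70.1 in control. No Klf5 LKO library reached the lowest control library. The limit set on the count of 0 in Klf5 LKO 3, taken as 3 reads, is 3.19 normalised counts, and the exact Poisson 95% interval reaches 3.93, both for counting error only. The log2 difference, -3.19 (95% confidence interval -5.60 to -0.78, SE 1.10), did not pass (limma adjusted p = 0.288). It was -1.60 without Klf5 LKO 3, -2.12 with DESeq2 and -2.34 at a pseudocount of 5. The size of the difference is therefore not settled. The authors' deposited table gives -0.39 with an SE of 0.17, where DESeq2 run here had an SE of 0.86. Whether both are on the same scale was not tested, so -0.39 is not a like measure to set against these values. The gene A630023A22Rik lies on the opposite strand within the same stretch. The mesothelial marker Msln had 0, 103 and 30.9 in Klf5 LKO, against 1165, 1302 and 1258 in control (limma adjusted p = 0.0328, DESeq2 adjusted p = 0.106). The summed level of 6 mesothelial markers was 1825 to 2045 in Klf5 LKO and 2833 to 3027 in control, a difference carried by Msln. Gpm6a made up most of the rest, with 1815, 1821 and 1999 in Klf5 LKO, against 1829, 1694 and 1534 in control. The groups of Gpm6a overlapped, as did those of Upk3b. The markers Upk1b, Wt1 and Lrrn4 each stood at 0 in 2 or more libraries, and the part of mesothelial cells in Anxa8 was not tested.

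Of the annexins outside the chosen members, Anxa9 had 113, 490 and 355 normalised counts in Klf5 LKO, against 441, 534 and 348 in control (limma adjusted p = 0.616), lowest by far in Klf5 LKO 1. Anxa10, known from gastric epithelium, had 3 reads in Klf5 LKO 2 and 3 in control 1 and was at 0 in the other libraries.

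Levels of different annexins were compared per kilobase of exon. Anxa5 led with 20501 to 31382 normalised counts per kilobase over the 6 libraries, followed by Anxa2 at 6842 to 11652 and Anxa4 at 3849 to 4875, with no overlap between these 3. Anxa13 at 2080 to 2679, Anxa6 at 1806 to 2819 and Anxa3 at 1521 to 2897 overlapped and could not be ranked over all libraries. Anxa7 came next at 536 to 655, then Anxa1 at 153 to 289 and Anxa11 at 110 to 164, which overlapped, and Anxa8 at 0 to 53.8.

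Anxa3 and Anxa6 stood in opposite order in the 2 groups. Per kilobase, Anxa3 was at 1905, 1521 and 1562 in Klf5 LKO, against 2483, 2805 and 2897 in control. Anxa6 was at 2586, 2819 and 2393 in Klf5 LKO, against 2106, 2186 and 1806 in control. Their ratio was 0.737, 0.540 and 0.652 in Klf5 LKO, against 1.18, 1.28 and 1.60 in control. The ratio thus lay below 1 in each Klf5 LKO library and above 1 in each control library, in a pair chosen after the values were seen. Anxa3 was lower and Anxa6 higher in every Klf5 LKO library, so the groups of the ratio had to separate. The p-value was therefore fixed at the smallest this design allows (exact permutation p = 0.1, two-sided) and adds no support.

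Anxa2 made up 14.8%, 15.4% and 16.8% of the summed annexin level per kilobase in Klf5 LKO, against 24.3%, 19.8% and 22.6% in control. Anxa5 made up 60.1%, 59.7% and 56.3% in Klf5 LKO, against 49.5%, 56.5% and 48.8% in control, where Klf5 LKO 3 and control 2 overlapped. Anxa3 had a share of 3.66% ± 0.495 in Klf5 LKO and 5.71% ± 1.03 in control, and Anxa6 of 5.71% ± 0.112 in Klf5 LKO and 4.21% ± 0.236 in control (SD, n = 3 each). Relative to Anxa4, Anxa2 stood at 1.73, 1.79 and 1.76 per kilobase in Klf5 LKO, against 2.41, 2.25 and 2.47 in control (exact permutation p = 0.1, two-sided), also a ratio chosen after the values were seen. All 10 annexins together took 0.647%, 0.652% and 0.586% of reads in Klf5 LKO, against 0.710%, 0.776% and 0.634% in control, ranges that overlapped at control 3.

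**Figure D4:**
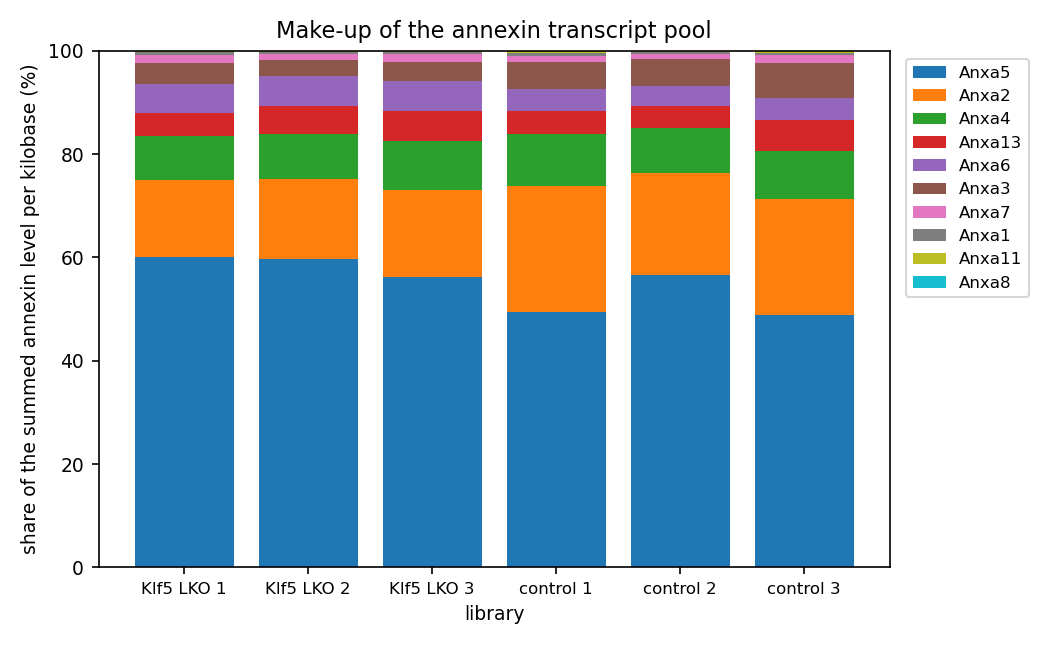
Share (%) of each annexin in the summed annexin level per kilobase, 1 stacked bar per library, Klf5 LKO left and control right. Anxa2 takes 14.8% to 16.8% in Klf5 LKO and 19.8% to 24.3% in control.

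The genes whose log2 values ran closest to those of Anxa3 over the 6 libraries, among 10734 others with a mean of at least 100, were Tmem45b, Sult1a1 and Cldn2, each with a Pearson correlation of 0.989. This describes 6 libraries that share the group difference, and none of the 3 passed singly (limma adjusted p = 0.0720, 0.523 and 0.113).

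**Figure D5:**
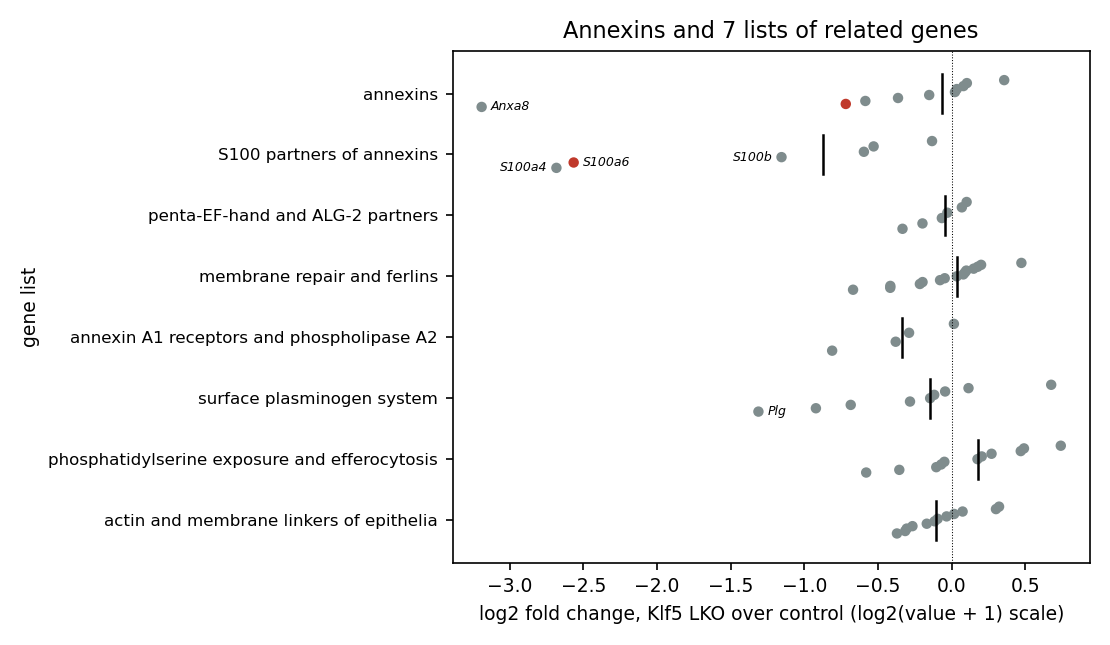
Log2 fold change (Klf5 LKO over control) of each tested gene in the annexin family and in 7 lists of related genes; red marks a limma adjusted p under 0.05 and the black line the list's median. The S100 partners have the lowest median, -0.88, with S100a6 called, and 2 genes in all are red, Anxa3 and S100a6.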

How the data were processed

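Libraries were made from low-input total RNA with cDNA pre-amplification, per the labels' protocols. Such amplification adds noise to low genes. The submitters' processing notes name TopHat, Bowtie2, DESeq2 and the build mm10. Which program counted reads, and on which gene models, is not given in the sources used here. The authors deposited a signal per gene and library, a read count divided by 1 factor per library. All values (100%) were whole multiples of the value of 1 read within 0.001, so reads were recovered. The authors' deposited comparison holds log2 fold changes, a Wald score and p-values. Its log2 fold changes for Anxa2, Anxa3 and Anxa8 are smaller in size than those of DESeq2 run here, and the reason was not tested.

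The main test was limma 3.58.1 with trend in R 4.3.3, on log2(value + 1) for genes with a mean of at least 10, two-sided, threshold 0.05. Because the deposited values are normalised, the count tests edgeR 4.0.16, DESeq2 1.42.0 and voom, on recovered reads, were alternatives. They called 84, 335 and 74 genes, against 88 with limma. Other alternatives were TMM and upper quartile scaling, dropping the filter or raising it to 50, a pseudocount of 0.5 or 5, a replicate block, a leukocyte term and leaving out each library. The tests were checked on simulated data. Length per gene is the union of GENCODE M21 exons. The members and lists were chosen with earlier results of these data known. Named genes are the annexins, Klf5, and per list the called members or the 2 of lowest p, and the 3 genes (mean of at least 100) that correlate best with a called annexin; other list members were named after their values were seen. Intervals and limits at 0 reads cover counting error only, and no molecular identifiers are described.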

Additional observations from a re-analysis of the deposited data

How the results depend on the processing

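The 88 genes called became 335 with DESeq2, 50 with the leukocyte term and 14 to 105 when 1 library was left out (14 without control 2). The 1 annexin lower became 2 with DESeq2, 2 with voom, 0 with the leukocyte term and 0 to 1 when 1 library was left out. No alternative called an annexin higher. For Anxa2 the log2 fold change was -0.59 with DESeq2 and -0.59 with voom, both past the threshold, and for Anxa3 it was -0.73 with the leukocyte term and -0.82 to -0.66 when 1 library was left out. Near 0, signs turned when 1 library was left out for Anxa1 (-0.19 to 0.37), Anxa5 (-0.035 to 0.27), Anxa7 (-0.042 to 0.10) and Anxa13 (-0.047 to 0.14), and for Anxa13 with the leukocyte term (-0.020). The cause was not tested. The remaining annexin results, 153 of 170, kept direction and side of the threshold.

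The replicate numbers in the titles do not pair the libraries by any stated source. Deviations of same-numbered libraries from their group means correlated at 0.18, -0.012 and 0.11, and not every library correlated best with its own number (Klf5 LKO 2 did so with control 3, at 0.14). With the number as a replicate block 110 genes were called against 88, Anxa3 was still called (adjusted p = 0.0400) and Anxa2 was not (0.0816). Depth limits Anxa8, with 71 reads over Klf5 LKO and 227 over control.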

Other observations

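Genes that expose phosphatidylserine or clear cells that show it, the lipid that Anxa5 binds, had a median log2 fold change of 0.18 over the 11 tested, against -0.0052 over all genes. In limma, edgeR and voom 0 passed. DESeq2 called 2 higher, where it called 2.48% of all tested genes in either direction. At an unadjusted limma p under 0.05, 2 were higher and 1 lower, where 4.95% of all tested genes were higher and 5.92% lower. Mfge8, a secreted bridge between phosphatidylserine and phagocytes, had 16005, 21922 and 18923 normalised counts in Klf5 LKO, against 12562, 14540 and 13104 in control (limma adjusted p = 0.172, DESeq2 adjusted p = 0.0108). Plscr1, a phospholipid scramblase, had 15645, 12740 and 13044 in Klf5 LKO, against 10972, 9413 and 9496 in control (limma adjusted p = 0.156, DESeq2 adjusted p = 0.0110). For both genes every Klf5 LKO library lay above every control library, as it did for 7.72% of all tested genes. Atp11a of the same list separated the other way. It had 2251, 3214 and 2999 in Klf5 LKO, against 3388, 3962 and 3386 in control (limma adjusted p = 0.414).

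Among 12 actin and membrane linkers of epithelia, 0 passed with limma, DESeq2, edgeR or voom. Only 1 was lower at an unadjusted limma p under 0.05, where 5.92% of all tested genes were lower. The list's median log2 fold change was -0.11. The actin-binding adaptor Lasp1 had 8404, 11353 and 10085 normalised counts in Klf5 LKO, against 11346, 12343 and 12958 in control, overlapping by the value of Klf5 LKO 2 (limma adjusted p = 0.436). The membrane linker Ezr had 8817, 14488 and 10214 in Klf5 LKO, against 12994, 15182 and 12747 in control (limma adjusted p = 0.552).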
